A study of Gasterosteus aculeatus with 17 samples.

Results

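The gill genes described here were higher in marine water than in fresh water in both of the populations studied, 100 genes of the 22456 in the table. Polyadenylated RNA was sequenced from the gills of 17 wild three-spined sticklebacks (Gasterosteus aculeatus), all males in breeding dress, with 1 library per fish. Marine fish, from a sea coast, were moved to fresh water for 4 days (5 fish, numbered 1 to 5) or kept in marine water (4 fish, numbered 2 to 5). Freshwater fish, from a lake, were moved to marine water for 4 days (4 fish, numbered 1 to 4) or kept in fresh water (4 fish, numbered 1, 2, 4 and 5). Kept fish were held captive like moved fish. Moving and the change of water go together in each population and cannot be told apart, and each population came from a single site.

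Members were chosen from the counts themselves. Counts were scaled to a library total of 1000000 (CPM), averaged per group, and compared between the waters as log2 ratios with 0.5 CPM added. Of 13681 genes with a mean of at least 5 CPM in a group, 1186 (8.67%) were lower in fresh water by 0.5 log2 units or more in marine fish and 957 (7.0%) were so in freshwater fish. Both conditions held for 136 genes (0.994%), and the 100 whose weaker difference was largest form the set. With the same thresholds, 201 genes were higher in fresh water in both populations, 225 were higher in the moved fish of both and 50 were lower in the moved fish of both. Because these water differences chose the members, they are given as descriptions and support nothing by themselves. The last gene taken, ranked 100, averaged 24.03 CPM in moved marine fish, against 48.1 CPM in kept ones. It averaged 47.6 CPM in moved freshwater fish, against 32.0 CPM in kept ones. The first gene left out averaged 22.2 CPM in moved marine fish, against 33.2 CPM in kept ones, and 23.2 CPM in moved freshwater fish, against 13.4 CPM in kept ones.

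In fish the gill is the main site of salt exchange. In sea water, ionocytes of the gill epithelium secrete salt that the fish gains by drinking, with sodium pumps, a sodium, potassium and chloride cotransporter and a chloride channel, while in fresh water other ionocytes take salt up from dilute water. Fish that move between these waters, as sticklebacks do, remodel this epithelium over days, through new transport proteins and through turnover of cells. The table gives gene identifiers with no names, and none of them could be paired with a symbol, so no member can be assigned to these roles and the gill label could not be checked against marker genes. Members are therefore called by their rank in the rule, with an identifier for a few. In whole gills, a lower level can come from fewer cells of a type or from less RNA per cell, and these cannot be told apart.

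Library totals ranged from 6932688 counts in moved marine fish 2 to 28960967 counts in kept freshwater fish 2, and all moved marine fish were sequenced less deeply than kept marine fish. The fish labelled moved marine fish 5 went against its label over much of the set, and several results that rest on it are given with and without it. The biological coefficient of variation, the sum over members and the population values of single members are printed with it only. Whether its label is right was not tested, so every mean of moved marine fish holds a fish whose water is in doubt. Its library held 9090093 counts and was not the shallowest. At many members its level was close to that of kept marine fish 5, with 66.7 and 69.4 CPM at rank 1. They were at 166 and 167 CPM at rank 23. At rank 18 they were at 4.18 and 4.22 CPM, where the other marine fish were at 122 to 1457 CPM. At other members they differed, as at rank 42 with 62.5 and 85.2 CPM. Whether these libraries come from separate fish was not tested. To see how each fish stood without its own weight in the choice, the rule was applied again without that fish, and the reselected genes were counted at which the fish lay on the side of its own group, relative to the midpoint between the mean log2 levels of the other moved and kept fish of its population. Moved marine fish 5 was on the fresh-water side at 24 of 100 reselected genes, against 44% over all genes with at least 5 CPM. The other moved marine fish were on their own side at 72.0% (fish 1), 85.0% (fish 2), 48.0% (fish 3) and 67.0% (fish 4) of genes, and kept marine fish at 77.0%, 87.0%, 41.0% and 66.0% (fish 2 to 5). Moved freshwater fish were on their own side at 65.0%, 70.0%, 79.0% and 55.0% (fish 1 to 4) and kept freshwater fish at 67.0%, 57.0%, 78.0% and 55.0% (fish 1, 2, 4 and 5). Over all genes these shares were 54.6%, 60.9% and 55.8% for moved marine fish 1, 2 and 4. They were 41.6%, 53.0% and 63.0% for kept marine fish 2, 3 and 5. For moved freshwater fish 1 to 3 they were 59.8%, 56.7% and 51.7%, and for kept freshwater fish 1 and 4 they were 62.8% and 56.7%. The shares over all genes were 47.3% for moved marine fish 3, 55.9% for kept marine fish 4, 63.7% for moved freshwater fish 4, 56.5% for kept freshwater fish 2 and 53.7% for kept freshwater fish 5, so these fish stood below or within 2 percentage points of them. This depended on the scaling. With TMM, moved marine fish 3 was at 51.0% against 46.8% over all genes, moved freshwater fish 4 at 53.0% against 48.7%, kept freshwater fish 2 at 56.0% against 47.1% and kept freshwater fish 5 at 53.0% against 49.0%, while kept marine fish 4 at 38.0% against 49.5% and moved marine fish 5 at 27.0% against 50.4% stayed below. By TMM, kept marine fish 5 was at 60.0% against 52.5%, moved freshwater fish 1 at 64.0% against 47.4% and kept freshwater fish 1 at 57.0% against 49.7%. Over genes reselected for the opposite pattern, higher in fresh water in both populations, moved marine fish 5 was on its own side at 22%, and the other 16 fish at 74.0% to 96.0%.

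**Figure D1:**
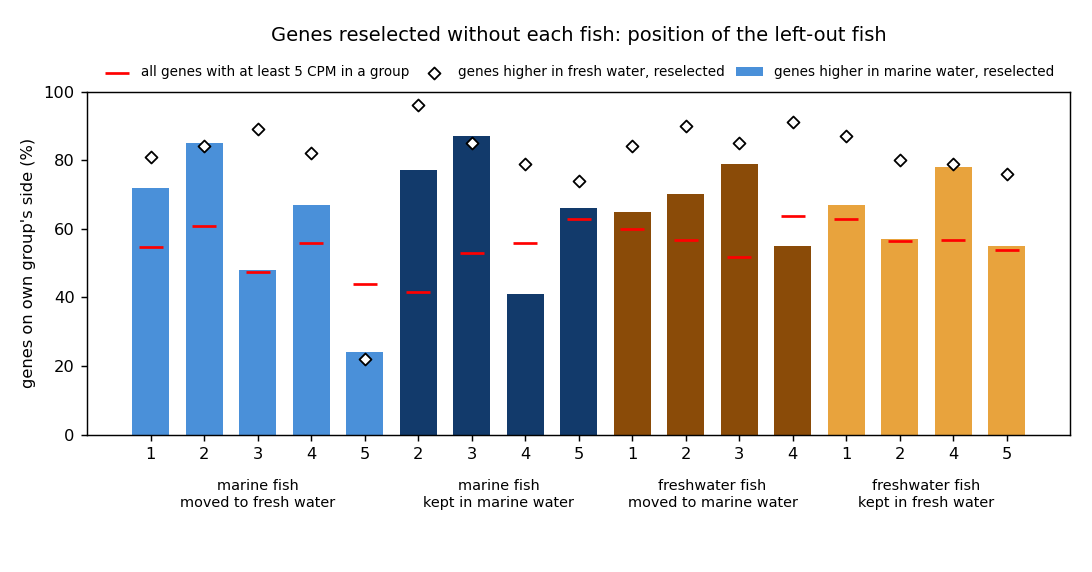
Share of genes (vertical axis, percent) at which a fish left out of the choice lies on the side of its own group, for 17 fish in 4 groups. Bars are genes reselected as higher in marine water, diamonds genes reselected as higher in fresh water, and red dashes all genes with at least 5 CPM in a group; moved marine fish 5 stands at 24% (bar) and 22% (diamond).

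The first-ranked member, ENSGACG00000010820, was at 8.21, 7.501, 6.08, 9.49 and 66.7 CPM in moved marine fish 1 to 5, against 35.5, 59.9, 49.8 and 69.4 CPM in kept marine fish 2 to 5. In freshwater fish it was at 34.3, 68.0, 129 and 93.3 CPM in moved fish 1 to 4, against 9.96, 16.4, 12.4 and 22.3 CPM in kept fish 1, 2, 4 and 5. Moved marine fish 1 to 4 lay below every other fish, and moved marine fish 5 lay among the kept marine fish. Its log2 difference between moved and kept marine fish was -1.43, and -2.70 without moved marine fish 5, and between moved and kept freshwater fish it was 2.38.

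The member ranked 5 was at 7.29, 6.78, 7.20 and 6.06 CPM in moved marine fish 1 to 4 but at 47.5 CPM in moved marine fish 5, against 34.3, 40.3, 30.4 and 42.8 CPM in kept marine fish. Moved freshwater fish were at 42.2, 46.6, 36.1 and 44.9 CPM, against 7.17, 9.53, 6.46 and 6.65 CPM in kept freshwater fish. Apart from moved marine fish 5, the fish thus fell at 2 levels that followed the water and not the population, and no fish lay between 9.53 and 30.4 CPM.

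For the member ranked 3, moved marine fish 1 to 4 were at 20.5, 20.8, 46.3 and 40.6 CPM and fish 5 at 162 CPM, against 159.6, 177, 82.0 and 167 CPM in kept marine fish. Moved freshwater fish were at 69.7, 402, 382.5 and 311 CPM, against 79.1, 50.1, 44.6 and 80.6 CPM in kept freshwater fish. Here moved freshwater fish 1 stayed within the range of the kept freshwater fish, while the other moved freshwater fish exceeded every marine fish. The member ranked 4 was at 10.98, 12.3, 15.1, 13.6 and 53.6 CPM in moved marine fish, against 39.7, 61.2, 43.0 and 67.7 CPM in kept marine fish. In freshwater fish it was at 44.8, 144, 169 and 135 CPM after the move, against 31.8, 32.5, 32.8 and 40.5 CPM in kept fish. The freshwater groups did not overlap at this member, although moved freshwater fish 1 was close to the kept fish.

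The second-ranked member, ENSGACG00000018570, was at 6.88, 1.44, 2.545, 1.845 and 1.87 CPM in moved marine fish, against 14.6, 9.64, 4.435 and 4.32 CPM in kept marine fish. It was at 19.0, 13.7, 13.1 and 7.99 CPM in moved freshwater fish, against 1.90, 3.56, 6.77 and 1.86 CPM in kept freshwater fish. Moved marine fish 5 was among the lowest here. The marine groups overlapped through moved fish 1, and the freshwater groups did not overlap.

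**Figure D2:**
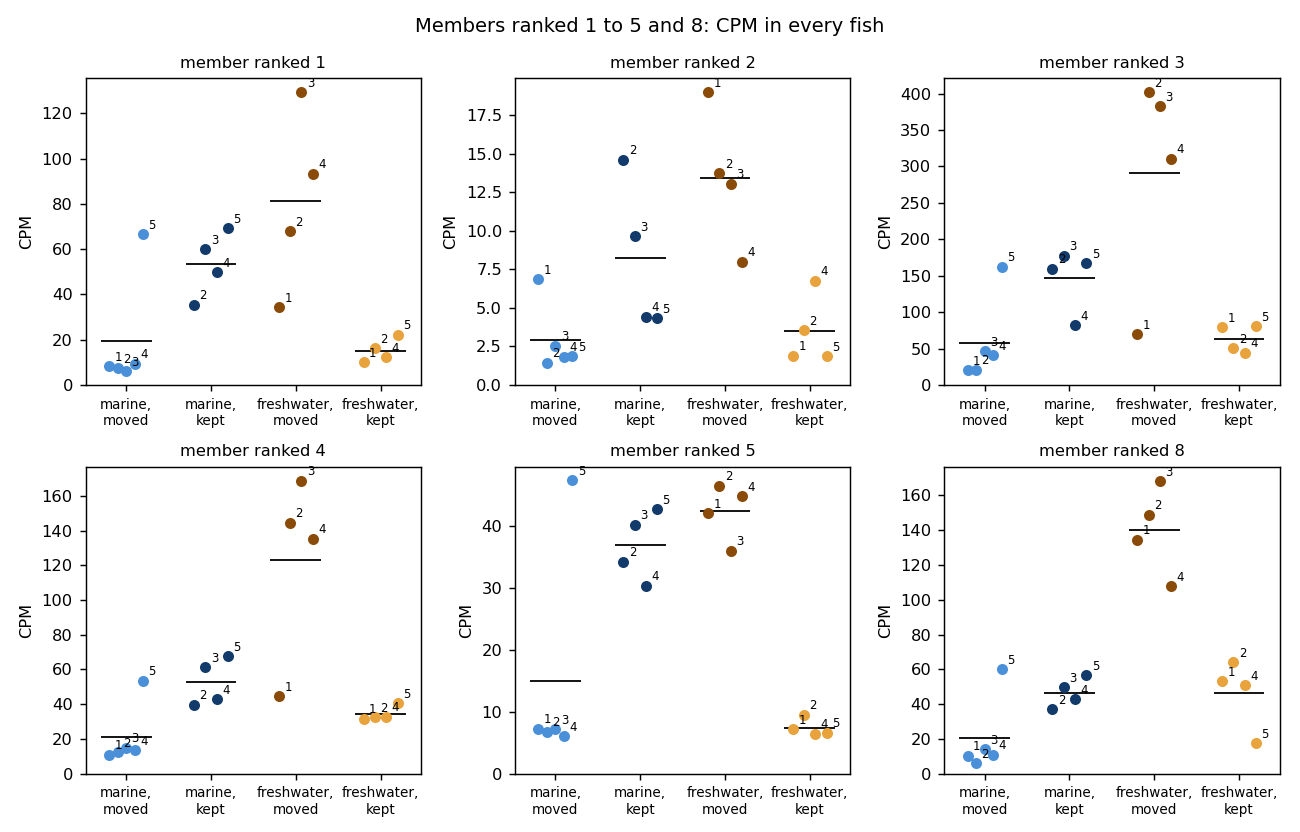
CPM (vertical axis, linear from 0) of the members ranked 1, 2, 3, 4, 5 and 8 in each of 17 fish, by group; points are fish with their number, and lines are group means. At ranks 1, 3, 4, 5 and 8 moved marine fish 5 lies with the kept marine fish, for example at 47.5 CPM for rank 5, where moved marine fish 1 to 4 lie between 6.06 and 7.29 CPM.

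ENSGACG00000009520, ranked 42, was singled out after its values were seen. It was at 45.6, 38.7, 69.3, 54.8 and 62.5 CPM in moved marine fish, against 85.5, 96.2, 101.6 and 85.2 CPM in kept marine fish. In freshwater fish it was at 132, 118, 138 and 131 CPM after the move, against 71.5, 72.5, 61.2 and 68.7 CPM in kept fish. Every fish in marine water was above every fish in fresh water, moved marine fish 5 included, which no other member showed. Its log2 differences were -0.76 in marine and 0.92 in freshwater fish.

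Over the set, the log2 difference between moved and kept marine fish had a median of -0.85 and reached -2.01, and that between moved and kept freshwater fish had a median of 0.81 and reached 2.69. Over all genes with at least 5 CPM these medians were -0.03 and 0.10. Changes above 2-fold were found for 31 members in marine fish, for 34 in freshwater fish and for 13 in both. The difference was larger in marine fish for 59 members and larger in freshwater fish for 41, and at 55 members the sizes lay within 0.25 log2 units of each other. With all fish, more than 1 log2 unit separated them at 6 members, all larger in freshwater fish. The member ranked 11 is an example: it averaged 5.30 ± 2.73 CPM in moved (SD, n = 5) and 11.5 ± 3.69 CPM in kept marine fish (n = 4), and 22.5 ± 11.25 CPM in moved and 3.08 ± 0.957 CPM in kept freshwater fish (n = 4 each). Without moved marine fish 5 the median in marine fish was -1.02 and 52 members fell more than 2-fold. The relative sizes also changed without this fish, and the counts of 59, 41, 55 and 6 members hold for all fish only. The member ranked 5, among the 6, was then at -2.35 in marine against 2.43 in freshwater fish. Rank 11 was at -1.34 against 2.68. At rank 6 the marine difference was the larger by more than 1 log2 unit, at -2.88 against 1.25.

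**Figure D3:**
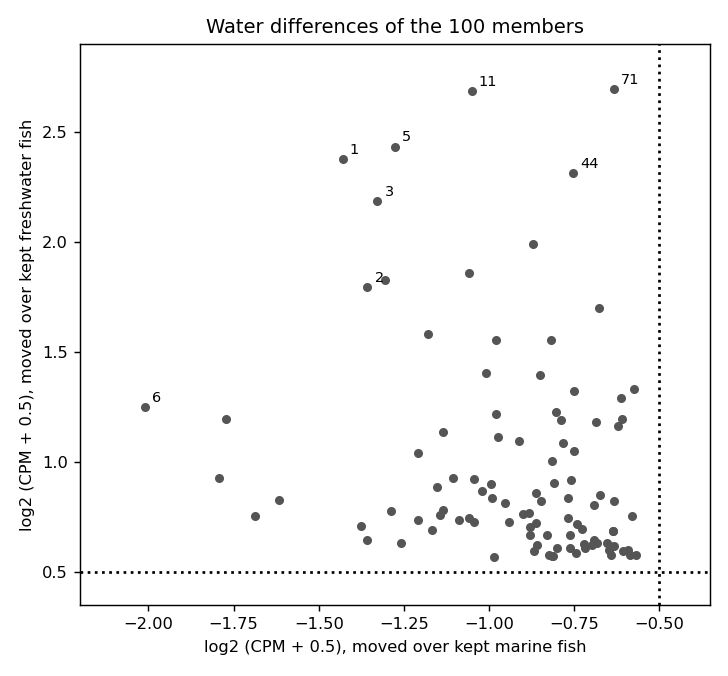
Each point is 1 of the 100 members, with the log2 ratio (CPM + 0.5) of moved over kept marine fish on the horizontal and of moved over kept freshwater fish on the vertical axis; dotted lines mark the thresholds of the rule at -0.5 and 0.5, and some points carry their rank. The points reach -2.01 for marine fish and 2.69 for freshwater fish.

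Read against the spread between fish, most of these differences were not called. By edgeR's quasi-likelihood test, adjusted over all 18238 genes tested, 9 members were lower in moved than in kept marine fish, where 1.44% of all tested genes were. In moved against kept freshwater fish 6 members were higher, where 0.121% of all tested genes were. All 100 members passed the low-count filter, and since the rule used the same contrasts, nothing is read from either count. ENSGACG00000009520 was the single gene of the whole table called in both (0.00548%). Its call in marine fish was lost without kept marine fish 2, 3 or 4, where 0 members were called. It was also lost with marine groups alone and with the fish number as a replicate block. Nothing is read from its being a member, as the rule used both contrasts. Groups did not overlap at 12 members in marine fish (5.53% of genes with at least 5 CPM), at 40 members in freshwater fish (7.84%) and at 6 members in both (0.468%).

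Without moved marine fish 5, 28 members were called lower in moved marine fish (2.35% of 18272 genes), 14 were called higher in moved freshwater fish (0.175%), and 11 were called in both (0.0602%). These 11 were all the genes of the table called in both, and they include the members ranked 1, 3, 4, 5 and 8. The rule used both contrasts, so nothing is read from all 11 being members. Moved marine fish 5 was singled out after its values were seen. It was at or above the lowest kept marine fish at 75 members. Moved marine fish 1 to 4 were so at 26, 17, 44 and 37 members. The share over all genes is not given here, so these values are descriptions. Leaving moved marine fish 5 out can only add members without overlap in marine fish, and the rule used the same contrasts. Nothing is therefore read from the rise in calls and in members without overlap. Groups did not overlap at 39 members in marine fish (9.14%) and at 20 in both populations (0.87%), and at 8 members every fish in marine water exceeded every fish in fresh water (0.197%, against 1 member and 0.0658% with all fish). The call in marine fish also depended on other fish. It was 0 members without kept marine fish 2, 3 or 4 and 17 without kept marine fish 5. Without moved marine fish 2 it was 1, and without moved marine fish 4 it was 3. Calls among all tested genes moved likewise. They numbered 0 without kept marine fish 2, 3 or 4 and 691 without kept marine fish 5. Without moved marine fish 2 and 4 they numbered 43 and 70, against 262 with all fish. In those analyses with 0 calls by edgeR, 47, 45 and 64 members had an unadjusted p below 0.05, against 65 with all fish. Over all tested genes these counts were 1514, 1627 and 1593, against 2110 with all fish. DESeq2 called 25 members and 775 genes with all fish. The rule used this contrast, so nothing is read from these counts either. The count in freshwater fish was 3 without kept fish 4, where 11 of all tested genes were called.

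The members varied more between fish of a group than most genes. Their median biological coefficient of variation was 44.1%, against 20.9% for genes with at least 5 CPM. Deviations of fish from their group mean ran together across members: over 17 fish the correlation of deviations had a median of 0.19 over pairs of members, against 0.02 over pairs of all genes with at least 5 CPM, and exceeded 0.5 in 19.1% of member pairs against 7.95%. The rule took differences of group means with no regard to spread, so genes that vary between fish could enter more easily. These correlations also share libraries, depth and scaling. The variation and the correlations are therefore descriptions. Average-linkage grouping on them, made after the values were seen, gave 4 groups of at least 5 members, with 23, 23, 11 and 6 members, and left 37 members outside.

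The tightest group had 23 members, led by the member ranked 17, and deviations from the group mean had a median correlation of 0.88 over its pairs of members, and 0.89 without moved marine fish 5. The group's mean deviation was -0.86, -1.03, 1.03, 0.58 and 0.27 log2 units in moved marine fish 1 to 5 and 0.66, 0.85, -1.12 and -0.38 in kept marine fish 2 to 5. It was 0.00, 0.68, 0.24 and -0.93 in moved freshwater fish 1 to 4, and 0.49, -0.36, -0.17 and 0.05 in kept freshwater fish 1, 2, 4 and 5. Fish of the same marine group thus stood up to about 1 log2 unit above or below their mean, where the median difference between the marine groups was -0.86. The most abundant member of the set, ranked 25, belongs here. It was at 553, 517, 4062, 2650 and 1524 CPM in moved marine fish, against 4662, 5929, 951.5 and 1998 CPM in kept marine fish. Moved freshwater fish were at 3457, 5350, 3022 and 1266 CPM, against 2772, 1327, 1362 and 1757 CPM in kept freshwater fish. The groups overlapped in both populations. Of the 23 members 0 had marine groups without overlap, with or without moved marine fish 5 (5.53% and 9.14% of genes with at least 5 CPM), and 3 had freshwater groups without overlap (7.84%). The rule used these differences, so nothing is read from these counts.

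The group led by the member ranked 1, also of 23 members, and the group of 11 led by the member ranked 5 behaved otherwise. Here moved marine fish 5 stood apart, with mean deviations of 1.14 and 1.36 log2 units, while kept marine fish lay between -0.06 and 0.05 in the first and between -0.32 and 0.50 in the other. In the group led by rank 1, moved marine fish 2 was low (-0.87), moved freshwater fish 1 was low (-0.63) and moved freshwater fish 3 was high (0.55). The median correlations of 0.61 and 0.66 were 0.48 and 0.40 without moved marine fish 5. The grouping used the deviations of this fish too, so members that share a high level in it were placed together. Its position in these groups, and the changes in overlap without it, are therefore descriptions. Marine groups did not overlap at 4 of 23 and 0 of 11 members with all fish (5.53% of genes with at least 5 CPM), and at 15 and 9 members without that fish (9.14%). Freshwater groups did not overlap at 10 and 9 members (7.84%). In the group of 6 led by the member ranked 11, moved marine fish 5 was also high, at 0.70 log2 units. The other moved marine fish lay between -0.31 and 0.04 there, and kept marine fish between -0.37 and 0.28. Marine groups did not overlap at 0 of these 6 members with all fish (5.53%) and at 5 without that fish (9.14%). Freshwater groups did not overlap at 1 of them (7.84%), and these values are descriptions too. In the group of 11 the freshwater response was the larger, with a median of 1.33 log2 units, against -0.69 in marine fish, or -1.23 without moved marine fish 5. For the member ranked 8, of this group, moved marine fish 1 to 4 were at 10.4, 6.06, 14.15 and 10.98 CPM and fish 5 at 60.1 CPM, against 37.2, 49.8, 42.7 and 56.8 CPM in kept marine fish. Moved freshwater fish were at 135, 149, 168 and 108 CPM, against 53.3, 64.2, 50.7 and 17.6 CPM in kept freshwater fish. Kept freshwater fish 1, 2 and 4 were thus within or above the range of kept marine fish.

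**Figure D4:**
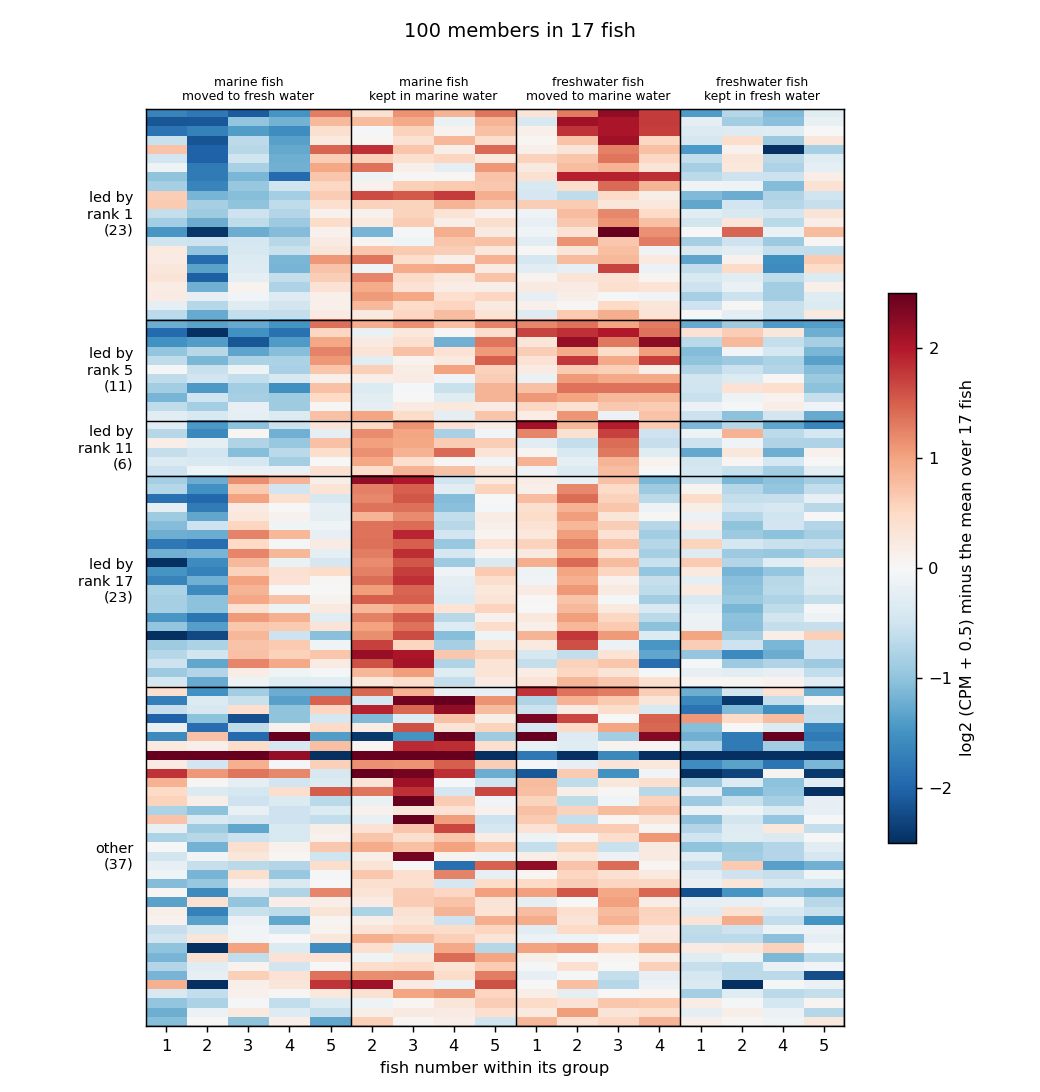
Each row is 1 of the 100 members and each column 1 of 17 fish; colour is log2 (CPM + 0.5) minus the member's mean over all fish, with the darkest colours also standing for larger values. Rows are grouped by how fish deviate from their group means: moved marine fish 5 lies nearer to kept than to other moved marine fish in the groups led by ranks 1 and 5, while in the group led by rank 17 kept marine fish 2 and 3 are high and kept marine fish 4 is low.

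In the sum over all members, the set took 6657 ± 2405 CPM in moved (SD, n = 5) against 12590 ± 3970 CPM in kept marine fish (n = 4), and 10520 ± 2190 CPM in moved against 5504 ± 669.5 CPM in kept freshwater fish (n = 4 each). Moved marine fish 2 was lowest at 3385 CPM and moved marine fish 5 highest of its group at 9415 CPM, above kept marine fish 4 at 8127 CPM. The freshwater groups did not overlap in this sum. Most members were of moderate abundance: the highest group mean was below 10 CPM for 17 members, from 10 to below 100 CPM for 59, and 100 CPM or more for 24.

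Whether the populations differ in the level of these genes, whatever the water, is a comparison that the water differences of the rule do not fix, since it averages over the waters. The minimum level of the rule does bear on it: 90 members reached 5 CPM in a group of both populations, 5 in freshwater groups alone and 5 in marine groups alone. Freshwater fish were compared with marine fish by edgeR over both waters. Of the 100 members, 25 differed between the populations, 6 higher and 19 lower in freshwater fish, where 33.5% of all tested genes differed, 17.2% higher and 16.3% lower, and 37.4% of genes with at least 5 CPM. The share that differed was below that of all tested genes, with no test of these shares, and 19 of the 25 were lower in freshwater fish. The members also vary more between fish (median biological coefficient of variation 44.1%, against 20.9% for genes with at least 5 CPM). The lower share of calls therefore cannot be read as a smaller difference. Of the 90 members at the minimum in both populations, 22 were called, 5 higher and 17 lower, where 35.7% of such genes were called, 19.0% higher and 16.7% lower. The called members ranked 12, 74 and 97 reached 5 CPM in 1 population only, the one in which they were higher, so their calls are descriptions. The median log2 difference was -0.28 over the members and -0.01 over all tested genes. The median size without regard to sign was 0.49, against 0.29 for genes with at least 5 CPM. The populations were fully separated at none of the members in either direction (4.61% and 0.994% of genes with at least 5 CPM). Without moved marine fish 5, 12 members were higher (16.6%) and 17 lower (15.3%) in freshwater fish. All freshwater libraries were deeper than all marine libraries, and with every library thinned to 6932688 counts 6 members were again called higher and 19 lower.

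ENSGACG00000019485, ranked 18, showed the largest population difference of the set. Freshwater fish were at 7.23, 2.12, 8.26 and 3.58 CPM after the move and at 3.56, 1.31, 1.52 and 3.81 CPM when kept. Marine fish were at 370.0, 228.5, 276, 122 and 4.18 CPM after the move and at 1457, 819, 502 and 4.22 CPM when kept. The log2 difference, freshwater minus marine fish, was -6.80 (SE 0.94, edgeR adjusted p = 9.4e-05). Moved and kept marine fish 5 were at the level of freshwater fish, and the other marine fish were all above 100 CPM.

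ENSGACG00000019515, ranked 31, was lower in freshwater fish too. Freshwater fish were at 1.47, 13.0, 2.49 and 7.665 CPM after the move and at 0.5265, 1.21, 8.401 and 1.10 CPM when kept. Marine fish were at 29.4, 17.6, 21.2, 19.1 and 5.94 CPM after the move and at 55.0, 44.4, 30.1 and 3.085 CPM when kept. The log2 difference was -2.70 (SE 0.60, edgeR adjusted p = 0.0032), with both marine fish numbered 5 again within the range of freshwater fish.

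In the other direction, ENSGACG00000010964, ranked 12, was at 22.9, 14.1, 4.04 and 12.2 CPM in moved and 9.19, 5.97, 7.26 and 2.46 CPM in kept freshwater fish. Marine fish were at 0.616, 1.73, 0.497, 1.76 and 2.86 CPM after the move and at 1.61, 3.14, 7.085 and 4.58 CPM when kept. The log2 difference was 1.83 (SE 0.38), and the ranges overlapped. This member reached 5 CPM in freshwater groups alone, with means of 13.3 and 6.22 CPM in moved and kept freshwater fish against 1.49 and 4.10 CPM in moved and kept marine fish, and its difference is a description. ENSGACG00000005904, ranked 43, was at 20.1, 27.9, 142.0 and 48.7 CPM in moved and 22.03, 60.8, 19.4 and 37.9 CPM in kept freshwater fish, against 7.60, 3.61, 8.94, 10.01 and 23.65 CPM in moved and 9.50, 21.4, 41.4 and 25.4 CPM in kept marine fish. Its log2 difference was 1.42 (SE 0.42, edgeR adjusted p = 0.015). The members ranked 18, 31 and 43 were each called in 27 of 27 alternative analyses of the population difference.

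Of the first 10 members, those ranked 4, 7 and 8 were called in this test. The member ranked 1 averaged 48.2 CPM over freshwater and 34.7 CPM over marine fish (edgeR adjusted p = 0.94), and the member ranked 5 averaged 24.95 CPM over freshwater and 24.7 CPM over marine fish (edgeR adjusted p = 0.27). Both include moved marine fish 5, at 66.7 and 47.5 CPM, against 6.08 to 9.49 and 6.06 to 7.29 CPM in moved marine fish 1 to 4. Population values without it are not given for these 2 members, so the lack of a call cannot be read as no difference. The members ranked 4 and 8 were higher in freshwater fish, with averages of 78.85 against 35.2 CPM and 93.15 against 32.0 CPM (edgeR adjusted p = 0.031 and 0.0095). The member ranked 7 was lower, with an average of 5.13 CPM in freshwater fish against 15.0 CPM in marine fish (log2 -1.62 with an SE of 0.28, edgeR adjusted p = 0.00049).

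**Figure D5:**
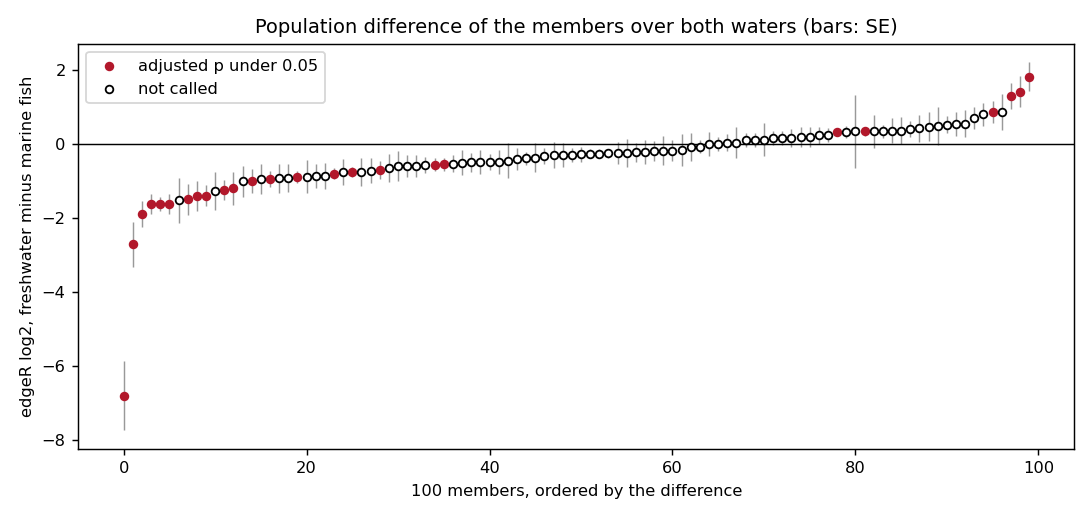
edgeR log2 difference, freshwater minus marine fish over both waters (vertical axis), for the 100 members in order of that difference; bars are standard errors, and red points have an adjusted p under 0.05. The 19 red points below 0 and the 6 above show the called members, and the lowest point, at -6.80, is the member ranked 18.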

How the data were processed

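The authors deposited whole-number read counts per gene, not normalized, for 22456 genes in 17 fish, with 0 columns of no sample and 664 genes at 0 in all fish. The tools named per the submitters' processing notes are TopHat2 2.1.0 and CASAVA 1.8.2. Which counter, build and annotation served is not given in the sources used here. Gene copies, overlapping genes and strand could not be examined. Of the 52177 reference genes none carried an identifier of the table, so no names, coordinates or sequences are given. Counts shared a divisor in all fish for 26 members, and for 27.9% of the 17449 genes with totals over 200, so counting error may exceed what the counts imply.

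CPM values use library totals. Tests used edgeR 4.0.16 (R 4.3.3): filterByExpr by group (minimum count 10), TMM scaling, glmQLFit and glmQLFTest on all 4 groups, no covariates, Benjamini-Hochberg adjustment at 0.05 over all 18238 genes tested; standard errors are the log2 change over the square root of F. On counts simulated for 18099 genes, the population test recovered 93% of 4-fold, 78.8% of 2-fold and 28.6% of 1.5-fold changes, with 8 false calls. The changed genes were drawn at random and not from the members. As the members vary more than most genes, these rates do not give the recovery among members. Each gene was simulated independently, while members deviated together between fish, so the 8 false calls do not give the number in these data. Depth (6932688 to 28960967 counts) makes counting error small for most members, and the spread between fish sets the precision. Alternatives were other scalings, filters and pseudocounts, DESeq2 1.42.0, limma 3.58.1 voom, equal depth, divisors removed, a fish-number block, only the groups compared, and each fish left out; analyses without moved marine fish 5 beyond these, the member groups, the fresh-water set and the minimum level in both populations were added after seeing the data. Members and lists were chosen with earlier results of these data known. The rule for named genes took ranks 1 and 2, and the 2 called members with the largest population difference each way among those with at least 5 CPM in the higher population whose populations do not overlap; as no member met that last condition it was dropped. Gene lists and cell type markers fixed by symbol could not be used. Other steps ran in Python 3.11.15 with matplotlib 3.10.9, pandas 2.3.3, numpy 2.4.6 and scipy 1.17.1.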

Additional observations from a re-analysis of the deposited data

Results flagged for a closer look

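ENSGACG00000010820, ranked 1, was at 66.7 CPM in moved marine fish 5, far from the other moved marine fish. ENSGACG00000018570, ranked 2, was at 6.88 CPM in moved marine fish 1, far above the others of that group on the CPM scale. ENSGACG00000019515, ranked 31, was at 8.4 CPM in kept freshwater fish 4, far above the other kept freshwater fish on the CPM scale. Neither of these fish stood apart on the log2 scale, while moved marine fish 5 did at rank 1. The summed level of the members was 6496 CPM in kept freshwater fish 1, against 5029 to 5260 CPM in the other kept freshwater fish. Without the 4 most abundant members it was 2830 CPM in that fish, against 2963 to 3126 CPM in the others, and the most abundant member, ranked 25, was at 2772 CPM in it, against 1327 to 1757 CPM. On the log2 scale, 36 of 400 combinations of member and group held such a fish. Of these, 10 were moved marine fish 5, 6 were kept freshwater fish 5 and 5 were moved freshwater fish 1. The nominal rate is about 1 in 20. The combinations share fish and members deviate together, so the count cannot be judged by that rate. The share over all genes is not given here, and the count is a description.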

How the results depend on the processing

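All 100 members kept the direction of both water differences under TMM and DESeq2 size factors, which moved the median freshwater difference of all genes from 0.10 to -0.01 and left 85 members past the thresholds. Under group medians, and without kept marine fish 3 or 4 or moved freshwater fish 2 or 3, the sign turned at 1 or 2 members each. Requiring at least 20 CPM, 54 members and 74 genes met the rule, in place of 100 and 136. With 1 fish left out, 83 to 100 members and 119 to 174 genes met the rule. Members called lower in moved marine fish numbered 25 with DESeq2, 1 without moved marine fish 1 and 2, 0 with marine groups alone and 0 with the fish number as a replicate block (47 and 54 at an unadjusted p below 0.05), and 0 to 28 without single fish. Over all genes the count of 262 was 775, 22, 0 and 0 in the same order (1540 and 1980 at an unadjusted p for the counts of 0), 90 with limma voom and 0 to 691 without single fish. Members called higher in moved freshwater fish numbered 16 with DESeq2, 11 with limma voom, 13 with freshwater groups alone and 3 to 14 without single fish, and all genes, 22 in all, numbered 72, 35, 48 and 7 to 32. Without single fish, members higher in freshwater fish numbered 4 to 12 and lower 15 to 27, and all genes 2545 to 3359 and 2468 to 3296; with the replicate block these were 8, 15, 2732 and 2442. The labels do not say whether the fish numbers pair fish. Deviations of same-numbered fish correlated from -0.24 to 0.26 over 7 pairs, with the highest value for the marine fish numbered 5. These values do not settle whether any fish are paired. Without moved marine fish 5, the log2 change of ENSGACG00000010820 in marine fish was -2.75 in place of -1.47 by edgeR. The median correlation of deviations ranged from 0.12 to 0.22 without single fish. At equal depth, 94 members met the rule. The cause of these changes was not tested.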
